A study of Drosophila melanogaster with 8 samples.

Results

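The odorant (Or), gustatory (Gr) and ionotropic (Ir) receptor genes are the large chemoreceptor families of Drosophila melanogaster. They were taken as every gene whose symbol opened with Or, Gr or Ir followed by a digit, which gave 186 of the 17730 genes in the deposited tables. There were 60 odorant, 60 gustatory and 66 ionotropic receptor genes. Of these, Or98P, Ir47b, Ir48a, Ir51a, Ir56e, Ir60c and Ir60f are pseudogenes in the annotation used here, and were kept in every count. Odorant receptor genes with a letter-only name, such as the co-receptor gene Orco, fell outside that rule and are described with the companion genes.

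RNA was compared between a pair of cell lines. The first, ML-DmD17-c3 (here D17-c3), was established from imaginal discs, the larval tissues that form adult body parts. The second, S2-DRSC, belongs to the S2 lines, which were set up from embryos and resemble hemocytes, the blood cells of the fly. Each line was untreated in the labels and was sampled from 4 separate flasks, so the spread between libraries is that between cultures of the same line. Each line stands for a single genotype and cell population, so a difference between the lines cannot be told apart from a difference in genotype, sex or culture history.

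Odorant receptors are membrane proteins that work with the shared co-receptor Orco in olfactory neurons. Gustatory receptors detect sugars, bitter compounds and carbon dioxide, and ionotropic receptors, relatives of the ionotropic glutamate receptors, detect acids, amines, temperature and humidity together with co-receptors such as Ir8a, Ir25a, Ir76b and Ir93a. In the fly each of these genes is mostly known from small sets of sensory neurons in the antenna, mouthparts, legs and larval head, and neither line comes from such neurons.

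Total expected counts ranged over 76822525 to 91074700 for D17-c3 libraries and over 83612326 to 110163700 for S2-DRSC libraries. Marker genes separated the lines. The summed level of 8 imaginal disc markers was 204.8 to 264.0 TPM, the share of transcripts scaled to a total of 1000000, in D17-c3 and 3.73 to 3.99 TPM in S2-DRSC, and that of 7 hemocyte markers was 196.4 to 301.9 TPM in D17-c3 and 8106 to 10126 TPM in S2-DRSC. Nplp2 alone carried most of the hemocyte sum in S2-DRSC, at 17.7 ± 3.21 TPM in D17-c3 and 8023 ± 907 TPM in S2-DRSC (SD, n = 4 each). Of 8 disc genes, 7 were higher in D17-c3 and 1 was lower. Of 7 hemocyte genes, 4 were lower in D17-c3, 1 (srp) was higher and 2 (He and NimC1) had no call. Among 3 glial markers 2 were higher in D17-c3 and 1 was lower, with sums of 4.86 to 8.88 TPM in D17-c3 and 27.02 to 33.63 TPM in S2-DRSC. By the same test, given below, 39.1% of all tested genes were higher and 36.1% lower in D17-c3.

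Most receptor genes failed to pass 3 counts in each library of a line, and 59 of the 186 never passed 3 counts in any of the 8 libraries. In D17-c3, 28 of the 186 genes (15.1%) had 0 counts in all 4 libraries, 52 had counts but never more than 3, 35 passed 3 counts in 1 to 3 libraries, and 71 (38.2%) passed 3 counts in each library. In S2-DRSC, 25 genes (13.4%) had 0 counts in all 4 libraries, 59 never passed 3 counts, 47 passed in 1 to 3 libraries and 55 (29.6%) passed in each. Of all 17730 genes, 66.5% passed in each D17-c3 library and 63.7% in each S2-DRSC library, and 12.1% and 14.5% had 0 counts in all 4 libraries of D17-c3 and S2-DRSC. The share of receptor genes at 0 was thus close to that of all genes, while the share above 3 counts was lower in both lines.

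**Figure D1:**
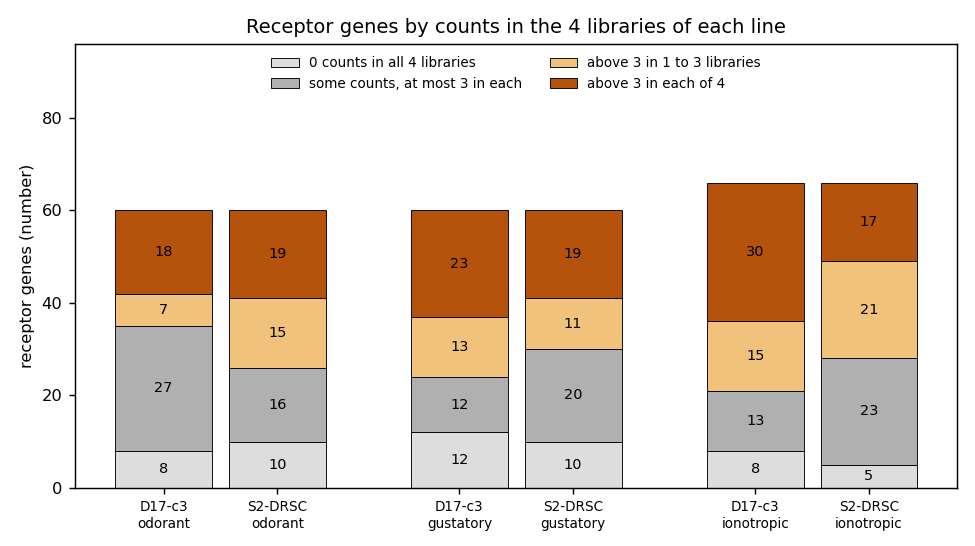
Number of receptor genes (y axis) by their counts in the 4 libraries of D17-c3 and S2-DRSC, for odorant, gustatory and ionotropic receptors. The segments stack from 0 counts in all 4 libraries (bottom) to more than 3 counts in each library (top), and the widest gap between the lines is in the top segment of the ionotropic receptors, with 30 genes in D17-c3 against 17 in S2-DRSC.

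Of the 186 genes, 48 passed 3 counts in each library of both lines and 8 had 0 counts in all 8 libraries (Or33a, Or83a, Or98P, Gr36a, Gr36c, Gr59b, Ir11a and Ir56e). Or98P and Ir56e are annotated as pseudogenes. A further 23 passed in each D17-c3 library and not in each S2-DRSC library, and 7 passed in each S2-DRSC library and not in each D17-c3 library. A mean of at least 1 TPM was reached by 23 genes (12.4%) in D17-c3 and 15 (8.06%) in S2-DRSC, against 52.5% and 48.0% of all genes in D17-c3 and S2-DRSC. In bulk RNA a low level can come from few cells with much RNA or many cells with little, and fewer cells and less RNA per cell cannot be told apart.

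Among the genes with few or no counts were receptors of well-known sensory neurons. Or47b and Or67d, receptors for fly pheromones, had at most 2 and 1 counts per library in D17-c3 and at most 4 and 7 in S2-DRSC. Gr33a, a bitter co-receptor, had 2 counts in a single D17-c3 library and 0 counts in every S2-DRSC library. Ir64a, an acid receptor, had at most 1 count per library in D17-c3 and at most 2 in S2-DRSC.

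Summed over all 186 genes, receptor RNA came to 174.0, 206.1, 147.14 and 170.83 TPM in D17-c3 replicates 1 to 4, and to 106.25, 106.25, 106.52 and 94.55 TPM in S2-DRSC replicates 1 to 4. The lines did not overlap, and D17-c3 held 175 ± 24.2 TPM against 103 ± 5.9 TPM in S2-DRSC (SD, n = 4 each). Gustatory receptors made up the gap, with 112 ± 13.5 TPM in D17-c3 and 44.7 ± 2.6 TPM in S2-DRSC. Odorant receptors summed to 20.3 ± 2.66 TPM in D17-c3 and 18.3 ± 1.26 TPM in S2-DRSC, and ionotropic receptors to 42 ± 8.22 TPM in D17-c3 and 40.5 ± 2.41 TPM in S2-DRSC. The TPM of genes in general leaned to D17-c3. In a limma fit on log2(TPM + 0.1) the median log2 fold change of all tested genes was 0.27, and 0.02 after TMM scaling between libraries. The sums are not scaled in this way, so the small gaps of the odorant and ionotropic sums give no direction. A few genes carried these sums, since the 5 highest receptors took 45.7% to 60.4% of receptor TPM in a D17-c3 library and 60.7% to 63.8% in an S2-DRSC library.

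Enough counts for a test were present at 60 of the 186 genes, and 126 were not tested. The untested genes had mean levels of at most 0.268 TPM in a line, and 14 of them passed 3 counts in each D17-c3 library and 6 in each S2-DRSC library. By edgeR's quasi-likelihood test, with Benjamini-Hochberg adjustment over all genes tested, 37 receptors (61.7% of those tested) were higher in D17-c3 at an adjusted p under 0.05, 11 (18.3%) were lower in D17-c3, and 12 had no call. The background over 11606 tested genes was 39.1% higher and 36.1% lower in D17-c3, or 75.2% in either direction. The median log2 fold change, D17-c3 over S2-DRSC, was 1.53 over the tested receptors and 0.04 over all tested genes. Of the 60 tested receptors, 35 were called and at least 2-fold higher and 11 at least 2-fold lower in D17-c3. The background was 25.6% of all tested genes higher and 17.4% lower. The ranges of the lines did not touch at 34 of the 60 with D17-c3 above and at 11 of the 60 with D17-c3 below, against 37.1% and 34.5% of all tested genes.

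The families differed in how these calls fell. Of 23 ionotropic receptors tested, 17 were higher in D17-c3, 1 was lower and 5 had no call (median log2 fold change 2.11). Of 20 gustatory receptors, 13 were higher, 3 were lower and 4 had no call (median 1.55). Of 17 odorant receptors, 7 were higher, 7 were lower and 3 had no call (median 0.14). The shares higher and lower were 73.9% and 4.35% for ionotropic, 65.0% and 15.0% for gustatory and 41.2% and 41.2% for odorant receptors. Over all tested genes they were 39.1% and 36.1%, so the split of the odorant receptors was close to that of all genes. The difference between families was not tested. Because a gene could be tested through its level in the higher line alone, these counts and medians describe the genes with enough counts and not the families as a whole.

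**Figure D2:**
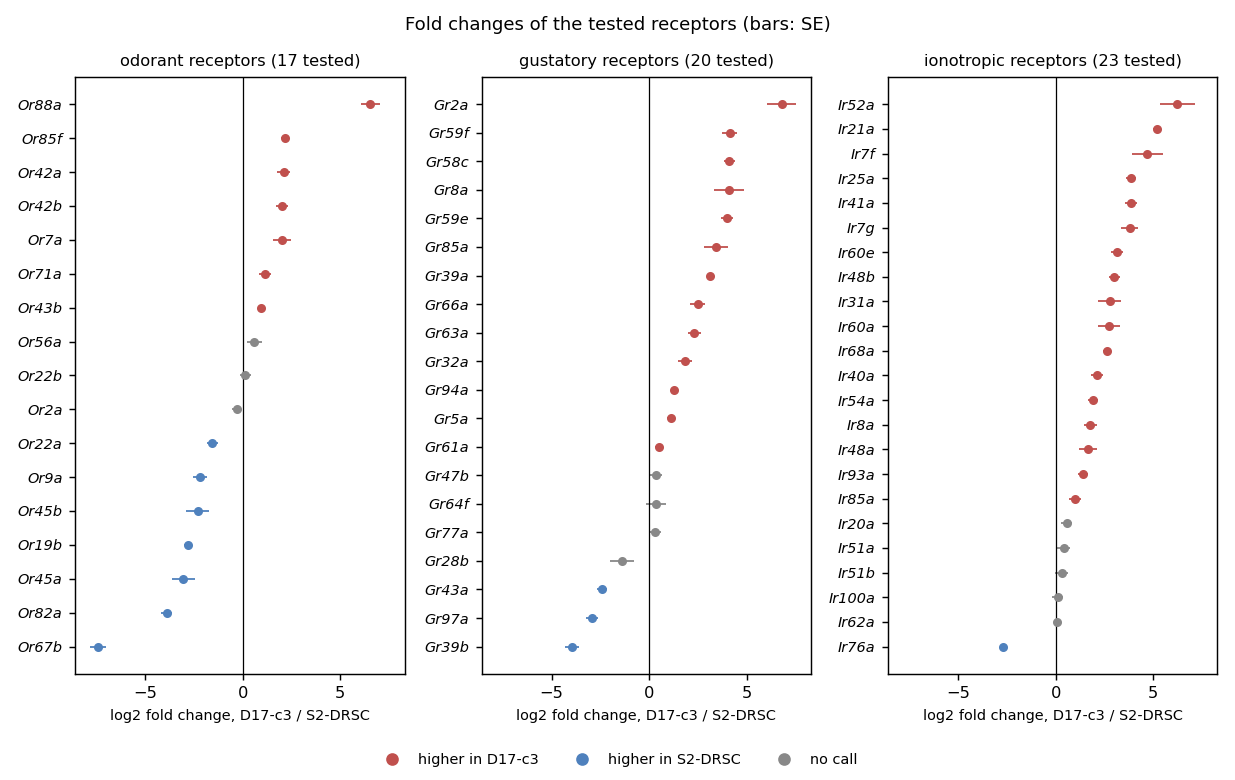
Log2 fold change of D17-c3 over S2-DRSC (x axis) with its SE for the 60 tested receptors, in a panel per family. Most ionotropic and gustatory receptors lie to the right of 0, with medians of 2.11 and 1.55, while the odorant receptors are spread evenly on both sides.

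Of the ionotropic co-receptors, Ir25a was the most abundant in D17-c3. Ir25a is a broadly used co-receptor for smell, taste, cool and humidity sensing in the fly. It had 4.32, 7.22, 3.74 and 4.52 TPM in D17-c3 replicates 1 to 4, against 0.26, 0.33, 0.29 and 0.14 TPM in S2-DRSC. All D17-c3 libraries lay above all S2-DRSC libraries, and the log2 fold change was 3.88 ± 0.27 (SE; edgeR adjusted p = 1.02e-06). Ir93a, which acts with Ir25a in cool and humidity sensing, had 0.62, 1.38, 0.70 and 0.77 TPM in D17-c3 and 0.27, 0.24, 0.26 and 0.31 TPM in S2-DRSC. Again the lines did not overlap (log2 fold change 1.42 ± 0.25, edgeR adjusted p = 0.00056). Ir8a, the co-receptor of acid-sensing receptors, was at 0.22, 0.55, 0.22 and 0.27 TPM in D17-c3 and 0.10, 0.08, 0.07 and 0.04 TPM in S2-DRSC (log2 fold change 1.79 ± 0.35, edgeR adjusted p = 0.00102). Ir76b, a co-receptor for amines, salt and amino acids, was too low to test, with 8, 15, 3 and 3 counts in D17-c3 and 0, 1, 1 and 0 counts in S2-DRSC.

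Ir21a, Ir68a and Ir40a, known to work with Ir25a and Ir93a, were also higher in D17-c3. Ir21a, the cool receptor subunit, had 2.29, 1.82, 1.82 and 2.29 TPM in D17-c3 and 0.05, 0.06, 0.03 and 0.04 TPM in S2-DRSC. It had a log2 fold change of 5.2 ± 0.22 (edgeR adjusted p = 3.91e-08). An antisense RNA gene, asRNA:CR43609, shares 79.4% of the exon bases of Ir21a on the opposite strand and averaged 8.50 TPM in D17-c3 and 0.053 TPM in S2-DRSC. The expected counts of Ir21a were not whole in any of the 8 libraries. The sources used here do not give the strand setting of the counting, and the part of such a neighbour in the counts of Ir21a was not tested. Ir68a and Ir40a, receptors of moist and dry air, averaged 3.21 ± 0.31 and 2.29 ± 1.27 TPM in D17-c3 and 0.438 ± 0.11 and 0.555 ± 0.072 TPM in S2-DRSC (SD, n = 4 each). Their log2 fold changes were 2.63 ± 0.19 and 2.11 ± 0.31 (edgeR adjusted p = 1.40e-06 and 0.000167). D17-c3 replicate 2 stood apart for Ir40a at 4.18 TPM, with 1.48 to 1.76 TPM in the other D17-c3 libraries, while Ir68a ran from 2.85 to 3.57 TPM in D17-c3.

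Further ionotropic receptors that were higher in D17-c3 had low levels. Ir52a, a taste receptor gene, had 42, 101, 22 and 25 counts in D17-c3 and 2, 0, 0 and 0 counts in S2-DRSC. Its summed counts per library total were 108-fold higher in D17-c3, with a 95% exact interval from counting of 29.6 to 901.0. Ir7f and its neighbour Ir7g, taste receptor genes of the same cluster, averaged 0.435 ± 0.33 and 0.665 ± 0.26 TPM in D17-c3 and 0.0125 ± 0.015 and 0.04 ± 0.028 TPM in S2-DRSC. Their log2 fold changes were 4.71 ± 0.79 and 3.80 ± 0.42 (edgeR adjusted p = 0.000406 and 2.43e-05). Ir41a, an amine receptor gene, had 56, 42, 37 and 43 counts in D17-c3 and 2, 5, 4 and 1 counts in S2-DRSC (log2 fold change 3.87 ± 0.33, edgeR adjusted p = 3.94e-06). Ir31a, Ir48a, Ir48b, Ir54a, Ir60a, Ir60e and Ir85a were higher in D17-c3 as well, with log2 fold changes from 1.00 to 3.14 and means of 0.135 to 0.835 TPM in D17-c3 and 0.015 to 0.145 TPM in S2-DRSC. Ir48a is annotated as a pseudogene. The lines overlapped at Ir48a and Ir85a, and Ir85a lost its call without S2-DRSC replicate 2 or 3 (edgeR adjusted p = 0.06 and 0.0528). Ir54a shares 26.6% of its exon bases with sub on the opposite strand, Ir85a 10.8% with Pif1A and Pif1B, and Ir60e 1.6% with Brca2, and Ir60a lies in an intron of nord.

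Ir76a was the highest ionotropic receptor in S2-DRSC and the only tested one of its family that was lower in D17-c3. Ir76a encodes an amine receptor of the antenna, at 19799278 to 19803427 on chromosome 3L of BDGP6. It had 5.0, 3.39, 4.27 and 5.53 TPM in D17-c3 and 24.73, 26.09, 25.80 and 23.00 TPM in S2-DRSC. The lines were far apart, with a log2 fold change of -2.69 ± 0.16 (edgeR adjusted p = 3.89e-07). The nearest gene upstream on its strand, SREBP, ends 298 bases away and averaged 254 TPM in D17-c3 and 569 TPM in S2-DRSC. CG14102 shares 14.1% of the exon bases of Ir76a on the opposite strand, at 8.41 TPM in D17-c3 and 13.1 TPM in S2-DRSC.

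Ir62a, Ir51b and Ir20a, expressed above 1 TPM in at least 1 line, had no call. Ir62a, which lies in an intron of Iml1 on the same strand, averaged 11.1 ± 1.35 TPM in D17-c3 and 8.93 ± 0.50 TPM in S2-DRSC (log2 fold change 0.06 ± 0.089, edgeR adjusted p = 0.566). Iml1 itself averaged 72.1 TPM in D17-c3 and 35.0 TPM in S2-DRSC. Ir51b, in an intron of row on the opposite strand, had 2.84, 7.94, 2.34 and 2.58 TPM in D17-c3 and 2.64, 2.72, 2.41 and 2.51 TPM in S2-DRSC. The only high value was that of D17-c3 replicate 2 (log2 fold change 0.32 ± 0.33, edgeR adjusted p = 0.401). Ir20a had 1.46, 0.76, 1.28 and 1.55 TPM in D17-c3 and 0.64, 0.76, 0.91 and 0.62 TPM in S2-DRSC, with overlap at D17-c3 replicate 2 (log2 fold change 0.56 ± 0.27, edgeR adjusted p = 0.0806). Without that library it was higher in D17-c3 (log2 fold change 0.76, edgeR adjusted p = 0.00157). With all 8 libraries Ir20a was called higher by edgeR on library totals (adjusted p = 0.0293) and by 3 limma fits (adjusted p = 0.0217 to 0.0304). Ir62a was called higher on library totals and in 2 limma fits (adjusted p = 0.0419 to 0.0473). Ir100a lies in an intron of CG42233. Ir51a and Ir100a averaged 0.448 and 0.318 TPM in D17-c3 and 0.273 and 0.245 TPM in S2-DRSC, without a call.

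**Figure D3:**
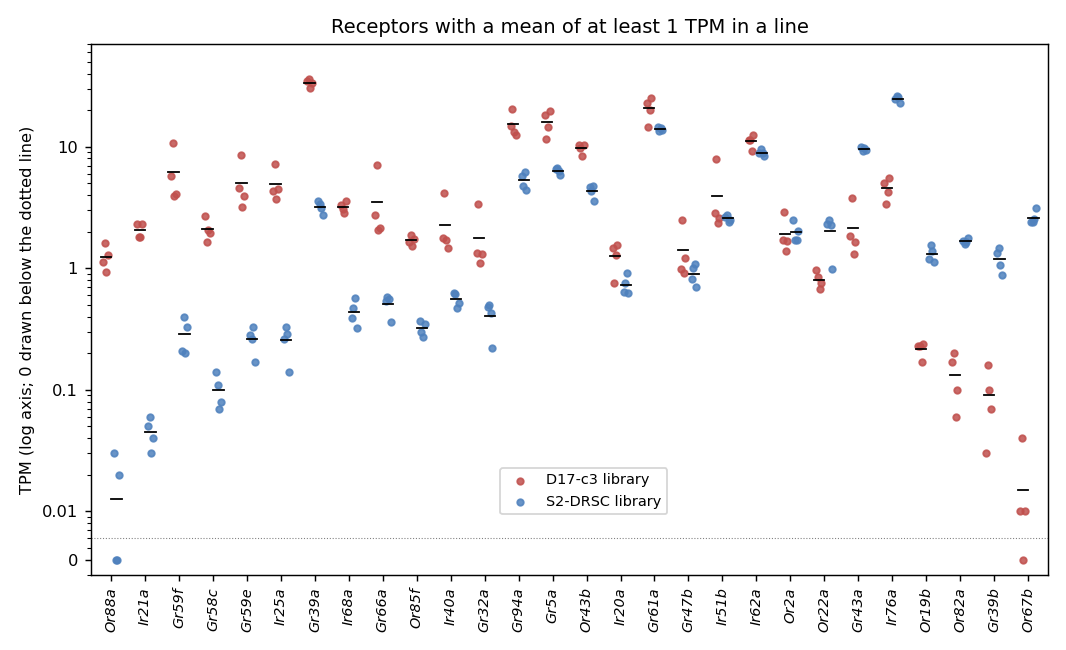
TPM in each library (y axis, log scale, with 0 drawn below the dotted line) of the 28 receptors with a mean of at least 1 TPM in a line, D17-c3 to the left of S2-DRSC within each gene and bars at the means. Gr39a is highest in D17-c3 at 30.16 to 36.29 TPM and Ir76a in S2-DRSC at 23.00 to 26.09 TPM.

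Gr39a was the highest receptor in D17-c3. It is a gustatory receptor gene with 4 annotated transcripts, at 21290734 to 21297686 on chromosome 2L of BDGP6, known from bitter taste neurons and from courtship. It had 34.40, 36.29, 30.16 and 33.27 TPM in D17-c3, against 3.60, 3.35, 3.12 and 2.74 TPM in S2-DRSC. Every D17-c3 library was far above every S2-DRSC library, with a log2 fold change of 3.12 ± 0.10 (edgeR adjusted p = 7.76e-09). It lies in an intron of Mondo on the opposite strand, which averaged 59.1 TPM in D17-c3 and 76.5 TPM in S2-DRSC. The transcript length that the deposited tables give for Gr39a, an average over its transcripts weighted by their estimated abundance, was 1118.8 ± 1.0 bases in D17-c3 and 1131.9 ± 1.1 bases in S2-DRSC. Gr39b, a separate gene, went the other way, with 2, 9, 6 and 4 counts in D17-c3 and 93, 120, 76 and 57 counts in S2-DRSC (log2 fold change -3.96 ± 0.38, edgeR adjusted p = 8.40e-06).

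The sugar receptor genes Gr5a and Gr61a were among the 5 most abundant receptors in both lines. Gr5a, a trehalose receptor gene at 5680617 to 5682488 on chromosome X of BDGP6, had 18.17, 11.47, 14.63 and 19.80 TPM in D17-c3 and 6.51, 6.73, 6.25 and 5.84 TPM in S2-DRSC. The lines did not overlap (log2 fold change 1.10 ± 0.18, edgeR adjusted p = 0.000316). The antisense gene asRNA:CR44958 shares 74.4% of the exon bases of Gr5a and averaged 4.78 TPM in D17-c3 and 0.628 TPM in S2-DRSC, and its part in the counts of Gr5a was not tested. Gr61a, a glucose receptor gene, had 22.71, 14.44, 20.22 and 25.25 TPM in D17-c3 and 14.40, 13.55, 14.13 and 13.75 TPM in S2-DRSC. The lowest D17-c3 value lay beside the highest S2-DRSC value, the lines overlapped on the scale of the test, and the call was narrow (log2 fold change 0.49 ± 0.17, edgeR adjusted p = 0.0252). It was lost on leaving out any library other than D17-c3 replicate 2, with adjusted p-values of 0.0567 to 0.0842 in those 7 fits. The weighted transcript length of Gr61a was 1821.7 ± 5.9 bases in D17-c3 and 1644.6 ± 5.2 bases in S2-DRSC.

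Gr43a, a fructose receptor gene of taste neurons, gut and brain, was lower in D17-c3. It had 1.84, 3.76, 1.32 and 1.65 TPM in D17-c3 and 9.97, 9.30, 9.81 and 9.42 TPM in S2-DRSC. The lines did not overlap, D17-c3 replicate 2 was the highest of its line, and the log2 fold change was -2.43 ± 0.25 (edgeR adjusted p = 1.53e-05). Dhx15 shares 10.2% of its exon bases on the opposite strand, with 96.6 TPM in D17-c3 and 108 TPM in S2-DRSC. The Gr64 cluster of sugar receptor genes was low in both lines. Gr64f, a co-receptor for sugars, averaged 0.33 ± 0.32 TPM in D17-c3 and 0.213 ± 0.049 TPM in S2-DRSC, without a call, and Gr64a to Gr64d had at most 8 counts per library in either line. Gr64e, which shares 99.1% of its annotated exon bases with Gr64d on the same strand, had 57.76 counts in D17-c3 replicate 2, 8.19 to 15.81 in the other D17-c3 libraries and 4.10 to 10.26 in S2-DRSC.

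The bitter receptor genes Gr66a and Gr32a were higher in D17-c3. Gr66a, a marker of bitter neurons, had 2.76, 7.05, 2.05 and 2.15 TPM in D17-c3 and 0.54, 0.58, 0.56 and 0.36 TPM in S2-DRSC (log2 fold change 2.48 ± 0.38, edgeR adjusted p = 0.000233). Gr32a, a bitter receptor that also acts in courtship, had 1.34, 3.38, 1.11 and 1.3 TPM in D17-c3 and 0.48, 0.50, 0.43 and 0.22 TPM in S2-DRSC (log2 fold change 1.83 ± 0.37, edgeR adjusted p = 0.00143). The lines did not overlap at either gene, and D17-c3 replicate 2 was the highest library for both. Gr32a shares 10.1% of its exon bases with CG6230 on the opposite strand.

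Gr59e and Gr59f, neighbours on chromosome 2R on opposite strands and known from bitter neurons, were higher in D17-c3 and low in S2-DRSC. Gr59e had 4.57, 8.53, 3.21 and 3.91 TPM in D17-c3 and 0.28, 0.26, 0.33 and 0.17 TPM in S2-DRSC (log2 fold change 4.00 ± 0.32, edgeR adjusted p = 2.51e-06). Gr59f had 5.78, 10.75, 3.93 and 4.09 TPM in D17-c3 and 0.21, 0.40, 0.20 and 0.33 TPM in S2-DRSC (log2 fold change 4.14 ± 0.38, edgeR adjusted p = 6.90e-06). The pair kept the same order of libraries in D17-c3 for the highest, replicate 2, and the lowest, replicate 3. Gr58c averaged 2.09 ± 0.44 TPM in D17-c3 and 0.10 ± 0.032 TPM in S2-DRSC, and its highest D17-c3 library was replicate 1 (log2 fold change 4.12 ± 0.29, edgeR adjusted p = 1.11e-06).

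The other gustatory receptors that were higher in D17-c3 included Gr94a, with 14.70, 20.59, 13.11 and 12.53 TPM in D17-c3 and 5.75, 4.75, 6.22 and 4.36 TPM in S2-DRSC. Its log2 fold change was 1.28 ± 0.16 (edgeR adjusted p = 5.06e-05), and it lies in an intron of p53 on the opposite strand, which averaged 33.1 TPM in D17-c3 and 20.2 TPM in S2-DRSC. Gr2a had 49.28, 136.46, 52.81 and 36.95 counts in D17-c3 and 0, 0, 1.05 and 1 counts in S2-DRSC. Its summed counts per library total were 157-fold higher in D17-c3 (95% exact interval from counting 43.2 to 1306). Gr2a shares 75.9% of its exon bases with futsch on the same strand, a neuronal cytoskeleton gene that averaged 16 TPM in D17-c3 and 0.81 TPM in S2-DRSC, so reads of the pair could be split by the authors' estimation and the value of Gr2a is uncertain. Gr8a, a receptor for the plant toxin canavanine, had 36, 91, 16 and 18 counts in D17-c3 and 2, 3, 4 and 0 counts in S2-DRSC (log2 fold change 4.09 ± 0.76, edgeR adjusted p = 0.000772). Gr85a was also higher in D17-c3 (log2 fold change 3.44 ± 0.62, edgeR adjusted p = 0.000627).

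The carbon dioxide receptor needs Gr21a and Gr63a together. Gr63a had 44, 70, 42 and 32 counts in D17-c3 and 5, 11, 11 and 11 counts in S2-DRSC (log2 fold change 2.31 ± 0.34, edgeR adjusted p = 0.000163). Gr21a was not tested, with 4, 3, 4 and 2 counts in D17-c3 and 0, 1, 0 and 0 counts in S2-DRSC. Only Gr63a of the pair was thus clear of the floor of 3 counts. Of the remaining gustatory receptors, Gr97a was lower in D17-c3 (8, 8, 7 and 9 counts, against 66, 93, 65 and 31 counts in S2-DRSC; log2 fold change -2.92 ± 0.30, edgeR adjusted p = 1.52e-05). Gr77a lies in an intron of CG13252. Gr47b and Gr77a averaged 1.40 and 0.325 TPM in D17-c3 and 0.90 and 0.223 TPM in S2-DRSC, without a call. Gr9a, in an intron of CG15312, was not tested, at 8 to 12 counts in D17-c3 and 2 to 7 counts in S2-DRSC.

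Gr28b, a gene with roles in warmth and light sensing, had a call that depended on the library set and on the fit. It had 0.17, 1.04, 0.17 and 0.10 TPM in D17-c3 and 0.86, 0.82, 0.77 and 0.67 TPM in S2-DRSC. With all libraries it had no call (log2 fold change -1.39 ± 0.60, edgeR adjusted p = 0.0579), and without D17-c3 replicate 2 it was lower in D17-c3 (log2 fold change -2.60, edgeR adjusted p = 3.47e-06). With all 8 libraries it was also called lower in D17-c3 by DESeq2 (adjusted p = 0.0284), by edgeR with no filter (adjusted p = 0.0446) and by limma on log2(TPM + 0.1) (adjusted p = 0.0339, and 0.0136 after TMM scaling).

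Odorant receptors were mostly low in both lines. Or43b, an antennal receptor gene, was the only one above 5 TPM, with 10.25, 9.81, 8.34 and 10.41 TPM in D17-c3 and 4.66, 4.29, 4.74 and 3.58 TPM in S2-DRSC. The lines did not overlap (log2 fold change 0.92 ± 0.11, edgeR adjusted p = 5.02e-05). Cul1 shares 40.7% of the exon bases of Or43b on the opposite strand, at 148 TPM in D17-c3 and 124 TPM in S2-DRSC, and its part in the counts of Or43b was not tested. Or83a had 0 counts in all 8 libraries. It lies wholly within exons of CG1172 on the opposite strand, which averaged 34.5 TPM in D17-c3 and 54.5 TPM in S2-DRSC. A count of 0 cannot show how reads of such a pair were divided.

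Or88a, a receptor for fatty acid methyl esters made by flies, never passed 3 counts in an S2-DRSC library. It had 77.76, 101.09, 61.99 and 83.20 counts in D17-c3 and 1.93, 0, 0 and 1.24 counts in S2-DRSC. Its summed counts per library total were 123-fold higher in D17-c3 (95% exact interval from counting 41.8 to 600.3). The antisense gene asRNA:CR44237 shares 85.9% of the exon bases of Or88a and averaged 0.978 TPM in D17-c3 and 0.13 TPM in S2-DRSC. Counts of Or88a were not whole in 6 libraries, and the interval does not cover how they were divided. The part of the antisense gene in them was not tested. Or85f was also higher in D17-c3, with 1.65, 1.89, 1.53 and 1.75 TPM, against 0.37, 0.30, 0.27 and 0.35 TPM in S2-DRSC (log2 fold change 2.15 ± 0.18, edgeR adjusted p = 3.72e-06). The fruit-odour receptor genes Or42a and Or42b, with Or7a and Or71a, were higher in D17-c3 by 1.14 to 2.09 on the log2 scale, at means of 0.26 to 0.903 TPM in D17-c3 and 0.0575 to 0.173 TPM in S2-DRSC. Or71a lies in an intron of Plp on the same strand, at 104 TPM in D17-c3 and 22.5 TPM in S2-DRSC.

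Or67b was the receptor with the largest fitted difference of those lower in D17-c3. It had 1, 3, 0 and 1 counts in D17-c3 and 210, 248, 230.91 and 252.87 counts in S2-DRSC. Its summed counts per library total were 165-fold higher in S2-DRSC (95% exact interval from counting 70.5 to 510.0), and no D17-c3 library passed 3 counts. Or82a, a receptor for geranyl acetate, had 0.17, 0.20, 0.06 and 0.10 TPM in D17-c3 and 1.67, 1.57, 1.65 and 1.77 TPM in S2-DRSC (log2 fold change -3.90 ± 0.28, edgeR adjusted p = 1.20e-06). Or22a, a receptor for fruit esters, had 0.96, 0.84, 0.67 and 0.75 TPM in D17-c3 and 2.32, 2.47, 2.25 and 0.98 TPM in S2-DRSC (log2 fold change -1.56 ± 0.28, edgeR adjusted p = 0.000622). The lines did not overlap at either gene, although S2-DRSC replicate 4 came close to D17-c3 for Or22a.

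Its tandem neighbour Or22b, expressed in the same neurons of the fly, had no call and averaged 0.665 ± 0.12 TPM in D17-c3 and 0.508 ± 0.21 TPM in S2-DRSC. Or19b averaged 0.218 ± 0.032 TPM in D17-c3 and 1.31 ± 0.20 TPM in S2-DRSC (log2 fold change -2.80 ± 0.20, edgeR adjusted p = 1.24e-06). Its near-identical copy Or19a had at most 4.41 counts in a D17-c3 library and 0 counts in S2-DRSC, and reads that match both genes could be split between them, so both values are uncertain. Or9a, Or45a and Or45b were lower in D17-c3 too, by log2 fold changes of -2.21, -3.05 and -2.32. Or45b lies wholly within exons of asRNA:CR45281 on the opposite strand, which averaged 1.29 TPM in D17-c3 and 8.39 TPM in S2-DRSC. The counts of Or45b were not whole in any of the 8 libraries, and the part of that neighbour in them was not tested. Or45a lies in introns of CG13739 and CG13954. Or67b shares 9.2% of its exon bases with Cyp40 on the opposite strand.

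Or2a and Or56a, the receptor of the mould odour geosmin, had no call with all libraries. Or2a averaged 1.92 ± 0.68 TPM in D17-c3 and 1.98 ± 0.36 TPM in S2-DRSC, and without D17-c3 replicate 2 it was lower in D17-c3 (log2 fold change -0.52, edgeR adjusted p = 0.0158). Or56a averaged 0.373 ± 0.13 TPM in D17-c3 and 0.213 ± 0.065 TPM in S2-DRSC, and without the same library it was higher in D17-c3 (log2 fold change 0.84, edgeR adjusted p = 0.0162). Or10a and Gr10a, annotated on the same exons, had identical counts in every library, 0.5 to 3 in D17-c3 and 7 to 13.5 in S2-DRSC, and cannot be told apart. Or1a, in an intron of CG3777, and Or85a, in an intron of Poxm, were not tested, with at most 9 and 1 counts per library in D17-c3 and at most 23 and 13 in S2-DRSC.

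D17-c3 replicate 2 stood apart from the other D17-c3 libraries at many receptors. Among the 57 tested receptors above 3 counts in each D17-c3 library, replicate 2 was the highest library at 34 (59.6%) and the lowest at 14 (24.6%), against 37.4% and 39.8% of all tested genes. Its median log2 ratio over the mean of the other 3 libraries was 0.43 for these receptors and -0.02 for all tested genes. The ratio was 7.07 for Gr28b, 4.76 for Gr64f, 4.19 for Gr8a, 3.07 for Ir51b, 3.04 for Gr66a, 2.7 for Gr32a, 2.34 for Gr59f and 1.72 for Ir25a. At the sugar receptor genes Gr5a and Gr61a, and at Or56a, it was 0.654, 0.635 and 0.412.

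**Figure D4:**
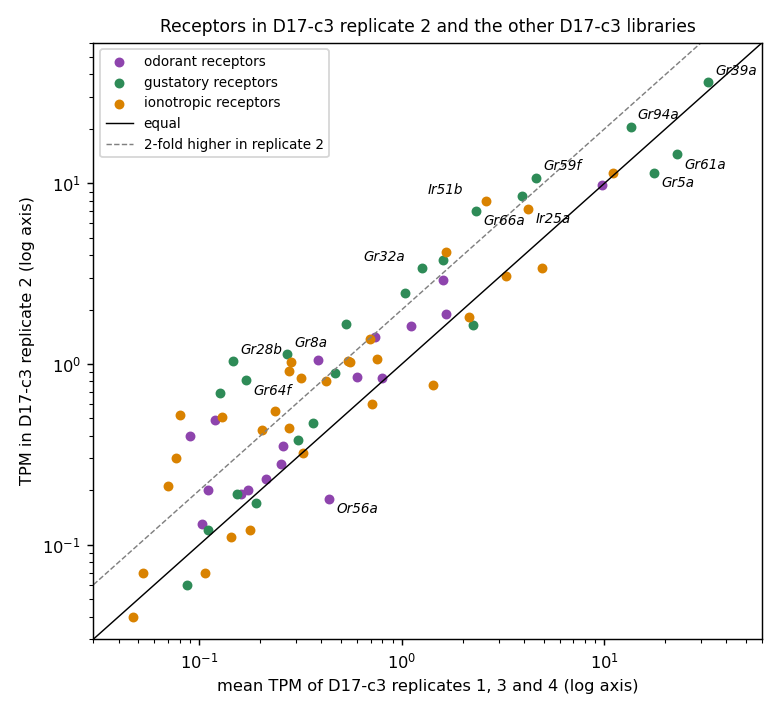
TPM in D17-c3 replicate 2 (y axis, log scale) against the mean TPM of D17-c3 replicates 1, 3 and 4 (x axis, log scale), with a point per receptor gene above 3 counts in each D17-c3 library. Points above the solid line are higher in replicate 2, among them Gr28b with a ratio of 7.07, and Gr5a, Gr61a and Or56a lie below it.

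Other genes moved with that library. Amt, an ammonium transporter gene of sensory organs, had 21.24 TPM in D17-c3 replicate 2 and 2.90 to 5.94 TPM in the other D17-c3 libraries. Marker genes moved both ways there, in a library that was the highest of its line at 37.4% and the lowest at 39.8% of all tested genes. Whether the marker lists differed from those shares was not tested. Of 7 hemocyte markers, 3 were highest and 2 lowest in this library: He had 57.93 TPM, with 6.63 to 9.77 TPM in the other D17-c3 libraries, while Hml had 16.29 TPM, with 33.86 to 36.75 TPM in the others. Of 12 neuron markers, 5 were highest and 1 was lowest: futsch had 26.73 TPM, with 9.26 to 15.95 TPM in the others, while cac had 9.42 TPM, with 11.9 to 14.96 TPM in the others. Of 8 imaginal disc markers, 4 were highest and 2 lowest, among them hh at 40.32 TPM, with 70.64 to 94.49 TPM in the others. The transcription factor gene sim had 5.29 TPM, with 17.23 to 26.28 TPM in the others. The sums over the hemocyte and neuron markers were highest in this library, at 301.9 and 54.18 TPM. Their part in the receptor values was not tested. Without D17-c3 replicate 2, 41 receptors were higher and 14 lower in D17-c3, with 4800 and 4558 of all genes, against 4533 and 4192 with all libraries. Leaving out S2-DRSC replicates 1 to 4 in turn gave 41, 40, 40 and 40 receptors higher and 12, 11, 11 and 11 lower. Of all genes, 4391, 4378, 4414 and 4436 were then higher and 4011, 4117, 4004 and 4179 lower in D17-c3. Without D17-c3 replicate 2, the log2 fold changes of Ir52a, Gr8a, Or45b, Or45a and Or67b became 5.6, 3.34, -3.03, -4.01 and -8.19. Of the S2-DRSC libraries, leaving out replicate 1 gave 7.47 for Or88a and 8.55 for Ir52a, leaving out replicate 2 gave 4.06 for Gr85a and 3.53 for Ir31a, and leaving out replicate 4 gave 5.49 for Ir7f.

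The genes that work beside the receptors did not follow a single direction, and neither did all tested genes, with 39.1% higher and 36.1% lower in D17-c3. Of 17 chemosensory companion genes, 13 were tested, of which 7 were higher and 5 lower in D17-c3 and 1 had no call (median log2 fold change 0.45). Orco, without which most odorant receptors do not reach the sensory membrane, averaged 0.0175 ± 0.013 TPM in D17-c3 and 0.0125 ± 0.013 TPM in S2-DRSC and was too low to test. TrpA1, a warmth and irritant channel, and ppk23, a pheromone-sensing channel subunit, were higher in D17-c3 by 4.74 ± 0.33 and 3.94 ± 0.63 on the log2 scale (edgeR adjusted p = 9.85e-07 and 0.000294). Snmp1, a membrane protein of pheromone sensing, and ppk25 were lower in D17-c3, with log2 fold changes of -3.97 ± 0.36 and -3.09 ± 0.34 (edgeR adjusted p = 5.82e-06 and 2.40e-05).

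The ionotropic glutamate receptors, the synaptic relatives of the Ir family, had 7 of 13 genes tested, with 4 higher and 1 lower in D17-c3 and 2 without a call (median log2 fold change 1.99). GluRIIB and clumsy had log2 fold changes of 4.24 ± 0.55 and 3.05 ± 0.39, and Ekar of -1.27 ± 0.29 (edgeR adjusted p = 7.16e-05, 5.91e-05 and 0.00318). Of 11 transcription factors known to set receptor choice or sensory neuron identity, 9 were tested, with 5 higher and 2 lower in D17-c3 (median 0.82). Beside these 2 lists, 39.1% of all tested genes were higher and 36.1% lower in D17-c3. The transcription factors ran from sim at 8.68 ± 0.65 and Fer1 at 6.21 ± 0.52, higher in D17-c3, to Xbp1 at -0.34 ± 0.092 and pdm3 at -5.0 ± 0.28.

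Neuron markers were present in part in each line. Of 12, 10 were tested, with 4 higher and 3 lower in D17-c3 and 3 without a call (median log2 fold change 0.03). This split was near that of all tested genes, at 39.1% higher and 36.1% lower. The summed level of the neuron markers was 36.72 to 54.18 TPM in D17-c3 and 23.03 to 25.03 TPM in S2-DRSC. The pan-neuronal gene elav averaged 10.6 ± 1.02 TPM in D17-c3 and 12.8 ± 0.84 TPM in S2-DRSC, and fne and futsch were higher in D17-c3 by 4.91 ± 0.19 and 4.01 ± 0.27 on the log2 scale. The synaptic gene brp and the sodium channel gene para were lower in D17-c3, with log2 fold changes of -5.40 ± 0.14 and -1.76 ± 0.24. VAChT, the acetylcholine transporter gene, was at 0 in all 8 libraries, and Gad1 averaged 0.0225 TPM in D17-c3 and 0.04 TPM in S2-DRSC. Their part in the receptor levels was not tested.

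Some receptors above the floor lay over or inside other genes, although most had no overlap. Of the 71 above 3 counts in each D17-c3 library, 13 (18.3%) shared exon bases with a gene on the opposite strand only, 2 (2.82%) with a gene on the same strand, and 10 (14.1%) lay in an intron, while 46 (64.8%) had no overlap. Of the other 115 receptors, 6 (5.22%) shared exon bases on the opposite strand only, 11 (9.57%) on the same strand, 12 (10.4%) lay in an intron and 86 (74.8%) had no overlap. In S2-DRSC, 12 of 55 (21.8%) shared exon bases on the opposite strand only, against 7 of the other 131 (5.34%). On the same strand these were 3 (5.45%) and 10 (7.63%). In an intron lay 10 (18.2%) and 12 (9.16%), and 30 (54.5%) and 102 (77.9%) had no overlap. Of the 13 opposite-strand receptors in D17-c3, expected counts were not whole in 8 libraries at Gr5a, Gr32a, Gr43a, Or43b, Or45b, Ir21a, Ir54a and Ir85a. They were not whole in 6 at Or88a and 3 at Ir76a, and in 0 at Gr8a, Gr64f and Ir60e. How such counts were divided was not tested. Without receptors that share exon bases with another gene, 27 of 37 higher and 7 of 11 lower calls in D17-c3 were left. No new fit was made for this. A gene ended within 1000 bases upstream on the same strand at 11 of the 28 receptors with at least 1 TPM in a line (39.3%) and at 59 of the other 158 (37.3%). Among these, Gr47b starts 28 bases after san, Ir25a 34 bases after tank and Gr66a 164 bases after BI-1.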

How the data were processed

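Polyadenylated RNA of 4 flasks per line was made into libraries with a stranded kit, per the labels' protocols. Named without roles in the submitters' processing notes are RSEM, STAR 2.7.3a, Trim Galore 0.6.4, DESeq2 1.30.1, Subread 2.0.0 with featureCounts, and dm6 and BDGP6 as builds. The deposited tables give, per the file headers, RSEM gene results with expected counts and TPM. Of the deposited expected counts, 16.8% to 18.2% per library were not whole (tolerance 0.005). The deposited TPM, with 2 decimals, keep no depth, and levels between genes were compared in TPM. The deposited FPKM were not used.

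Receptors were chosen by symbol, and positions came from an Ensembl release 115 annotation of BDGP6, which held all 186. The members, lists and rules were chosen with earlier results of these data known. Expected counts were rounded and tested over all genes in edgeR 4.0.16 (quasi-likelihood) in R 4.3.3 (TMM, filterByExpr, by line, no other covariate), with Benjamini-Hochberg adjustment at 0.05. Fold changes are on the log2 scale, and each SE is the size of the log2 fold change divided by the root of F.

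A floor of 3 counts per library covers counting error only. Intervals for genes with at most 5 summed counts in a line are exact binomial at 95% and cover counting error only. The replicates differed by more than sampling noise (chi-square per degree of freedom at least 8.7). Named were the co-receptors and carbon dioxide receptors, up to 10 called members per direction by fold, the 5 highest per line, up to 5 without a call, members above the floor that overlap another gene, and up to 2 per direction of each companion list. Other receptors were named after their values were seen. Alternatives were other size factors, library totals, other filters, DESeq2 1.42.0, limma 3.58.1 on log2(TPM + 1) and log2(TPM + 0.1), a replicate block, a test against a 2-fold change and leaving out each library. A TMM-scaled TPM fit and the removal of overlapping receptors were added after seeing the data.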

Additional observations from a re-analysis of the deposited data

Results flagged for a closer look

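Libraries that stood far from the other 3 of their line by Dixon's 95% criterion were found in 23 of 134 groups of 4 values, and chance flags about 1 in 20. Of these, 12 were D17-c3 replicate 2. It was the high library at Ir51b (7.94 TPM, others 2.34 to 2.84), Gr66a (7.05, others 2.05 to 2.76), Ir40a (4.18, others 1.48 to 1.76) and Gr32a (3.38, others 1.11 to 1.34). It was also high at Gr2a (1.66, others 0.441 to 0.601), Gr28b (1.04, others 0.104 to 0.17), Or22b (0.854, others 0.58 to 0.623) and Ir51a (0.836, others 0.307 to 0.33). The last 4 were Gr64f (0.808 TPM), Gr64e (0.688 TPM), Ir8a (0.548 TPM) and Ir60c (0.516 TPM).

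In D17-c3 replicate 1, Ir60e (0.907 TPM), Ir31a (0.213 TPM) and Gr93a (0.129 TPM) were high. In D17-c3 replicate 3, Gr85a (0.213 TPM) and Or19b (0.172 TPM) were low.

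In S2-DRSC replicate 4, Or22a was low at 0.981 TPM, with 2.25 to 2.47 TPM in the other S2-DRSC libraries, and so were Gr66a (0.362 TPM) and Or42a (0.0921 TPM), while Or85a was high at 0.185 TPM. The summed TPM of all receptors was low in the same library, at 94.55 TPM with 106.25 to 106.52 TPM in the others. In S2-DRSC replicate 2, Ir60e was high at 0.105 TPM.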

How the results depend on the processing

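Of the results per tested receptor under the alternatives, 1059 kept their direction and their side of the threshold, 17 lost a call, 16 gained a call and 9 changed sign. Receptors that an alternative did not test are left out of this tally. With the filter of 1 CPM it holds 25 of the 60 receptors, and calls that went missing there are not among the 17. The 9 that changed sign had no call before and arose on leaving out a library. The log2 fold changes then ran from -0.012 to 0.531 at Ir51a, -0.003 to 0.471 at Gr47b, -0.521 to 0.569 at Gr64f, -0.197 to 0.455 at Ir51b and -0.051 to 0.266 at Ir100a, each negative without D17-c3 replicate 2. They ran from -0.081 to 0.375 at Or22b (negative without S2-DRSC replicate 4) and -0.008 to 0.084 at Ir62a (negative without D17-c3 replicate 4), and Ir100a was also negative without S2-DRSC replicate 3 or 4. The causes were not tested.

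Counts of receptors higher in D17-c3 (37) were 16 where genes needed 1 CPM in 4 libraries, which tests fewer genes. Those lower in D17-c3 (11) became 5 with that filter. Both directions grew with no filter (54 higher, 26 lower), DESeq2 (51 and 23) and limma on log2(TPM + 1) without a filter (49 and 22). The calls over all genes, 4533 higher and 4192 lower in the main fit, moved too. They were 3498 and 3383 with the filter of 1 CPM and 5107 and 4730 with no filter. With DESeq2 they were 5119 and 4616, and with limma without a filter 5910 and 3403. In the main fit, 27 of the 37 and 7 of the 11 were left once receptors whose exons overlap another gene were taken out. Against a 2-fold change, 30 and 11 receptors were higher and lower in D17-c3, with 2499 and 1619 genes of the whole table. Of the companion and neuron genes, 17 were higher and 7 lower in that test. Ir48a, Ir93a, Or71a, Gr5a, Ir85a, Or43b and Gr61a lost their calls there. Deviations from the line mean correlated between same-numbered libraries of the lines at -0.0394 to 0.115, and between differently numbered ones at -0.12 to 0.164. These values showed no pairing by replicate number, and they cannot exclude a shared day or batch. With the replicate block 37 and 12 receptors were called, Gr28b being added, with 4419 and 4193 of all genes. Library totals alone moved the median of all tested genes to 0.21 (log2) and that of the tested receptors to 1.70, and limma on log2(TPM + 0.1) to 0.27 and 1.3. The median of the tested receptors was lowest with limma on log2(TPM + 1), at 0.40 (0.39 without a filter), since a pseudocount of 1 shrinks the folds of low genes.

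Receptors at 0 in D17-c3 (28) became 80 at up to 3 counts, 113 at up to 10 counts and 107 under 0.1 TPM, and in S2-DRSC (25) 84, 130 and 130. Those above the floor (71 in D17-c3, 55 in S2-DRSC) became 20 and 13 at 1 TPM in each library, and 86 in S2-DRSC above 0 counts.

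Leaving out each library gave 36 to 41 receptors higher and 11 to 14 lower in D17-c3, 4336 to 4800 and 4004 to 4558 of all genes, and 19 to 20 and 11 to 13 companion and neuron genes. It gave 32 to 36 receptors at 0 and 72 to 73 above the floor in D17-c3, and 28 to 35 at 0 and 55 to 61 above the floor in S2-DRSC. These detection counts can only stay or rise when a library is left out, since fewer libraries must meet the rule. At receptors with at most 3 counts in every library of both lines, a difference was not detectable at this depth.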
